A study of Mus musculus with 3 samples.

Results

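This report describes 10 genes that control or carry out microRNA processing, as RNA-seq measured them in mouse ALSCs: *Lin28a*, *Lin28b*, *Trim71*, *Drosha*, *Dgcr8*, *Dicer1*, *Tarbp2*, *Xpo5*, *Ago1*, and *Ago2*. They were found by gene name among the 55421 named genes of the table, and all 10 had a row. ALSCs are stem cells grown out of epiblasts of gastrulae at embryonic day 6.5, from female ICR mice mated with GOF/GFP males, which carry a GFP reporter. The cells were kept in N2B27, a defined medium without serum, with Activin A and LIF. All 3 libraries (replicates 1, 2, and 3) were made from polyA RNA of untreated ALSCs, so there was 1 group and no test between groups. The labels do not say whether the replicates were separate lines or cultures of 1 line, so tests on them measure only the spread between these samples. The total count on named genes ranged from 18037342 to 18724038. Levels are FPKM, that is, counts per kilobase of the table's gene length, scaled to the library's total on named genes.

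The labelled cell type was compared with its markers. All 7 genes of the epiblast list reached 1 FPKM in every library, among them *Pou5f1* at a mean of 648 FPKM. None of 5 markers of naive embryonic stem cells did. Of these, *Zfp42* had at most 3 counts in a library, while *Esrrb* was highest at a mean of 0.788 FPKM (63, 107, and 92 counts) and *Tfcp2l1* was at 0.717 FPKM. Among lineage markers, *Sox1* (neural, mean 8.18 FPKM), *Foxa2* (endoderm, 1.96 FPKM), and *Eomes* (primitive streak, 1.32 FPKM) reached 1 FPKM in every library. The other listed neural, endoderm, and primitive streak genes did not, and no listed trophoblast or germ cell gene did. Of 8 fibroblast genes 3 reached 1 FPKM in every library, with a summed level of 12.6 to 14.2 FPKM over the 8. *Thy1* had a mean of 6.88 FPKM and *Col1a1* of 5.04 FPKM, while *Dcn* and *Lum* were at 0 and *Col3a1* and *Postn* at no more than 3 counts in all libraries. The part of other cell types in the values below was not tested. Replicate 1 stood apart from the others. The biological coefficient of variation was 0.153 over the 3 libraries and 0.0530 without replicate 1.

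MicroRNA genes are transcribed as long primary transcripts. The Microprocessor, made of the nuclease DROSHA and its RNA-binding partner DGCR8, cuts a hairpin out of the transcript, exportin-5 carries the hairpin to the cytoplasm, and DICER1 with its partner TARBP2 trims it to a short duplex. An Argonaute protein keeps 1 strand of the duplex and is guided by its seed (bases 2 to 8) to matching sites in mRNAs. The LIN28 proteins bind the precursors of the let-7 family and block their maturation, and mature let-7 in turn represses *Lin28a*, *Lin28b*, and *Trim71*. This switch is known for its place between pluripotent cells, which hold much LIN28, and differentiated cells, which hold much let-7.

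Mature microRNAs are too short for a polyA library and were not measured. Sequences are shown here because the let-7 seed and the LIN28-binding letters link the genes described below. The mature let-7 sequences in RefSeq (GRCm38.p6) were matched for 9 names, and all 9 had the seed GAGGUAG, here in capitals in 4 of them.
let-7a: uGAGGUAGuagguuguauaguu
let-7d: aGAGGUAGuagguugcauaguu
let-7g: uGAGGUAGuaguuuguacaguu
miR-98: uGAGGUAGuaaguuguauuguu
Several of the microRNAs best known from pluripotent mouse cells have another seed, AAGUGCU. Other members of the same clusters differ, such as miR-290a (AAGUGCC) and miR-302c (AGUGCUU). The seed AAGUGCU is shown for 2 members of the mir-290 to mir-295 cluster and 1 of the mir-302 cluster.
miR-294: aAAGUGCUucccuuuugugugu
miR-295: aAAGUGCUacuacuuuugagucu
miR-302b: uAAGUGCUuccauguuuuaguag

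The zinc knuckles of LIN28 are known to recognise GGAG in the terminal part of let-7 precursors. The letters GGAG (sense strand, after the 5′ arm) were present in 9 of 12 let-7 family hairpins and were absent from *Mir98*, *Mirlet7b*, and *Mirlet7c-2*. GGAG anywhere was found in the same 9 let-7 hairpins and in 447 of 1005 mouse hairpins (44.5%). A hairpin with the letters (*Mirlet7g*, chr9:106178840-106178927, plus strand) and a hairpin without them (*Mirlet7b*, chr15:85707319-85707403, plus strand) are shown, with GGAG in capitals. A match is a description of the letters and not a measured binding site.
Mirlet7g: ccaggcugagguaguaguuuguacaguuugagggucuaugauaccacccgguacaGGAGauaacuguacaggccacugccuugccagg
Mirlet7b: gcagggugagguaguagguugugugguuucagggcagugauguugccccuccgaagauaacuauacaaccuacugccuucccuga

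Each 3′ UTR was searched, on its sense strand, for CTACCTC, which pairs with the 7 seed bases, and for CTACCTCA, which has a further A. The second is contained in the first. The UTR was that of the longest coding transcript in GENCODE M21 (GRCm38). Of the 10 genes, 5 held the shorter match and 4 the longer, against 8.85% and 3.01% of all 20957 coding genes with a 3′ UTR. These genes have long UTRs (median 3313 bases, against 937), and among the 5305 genes with a UTR of at least 2000 bases the shares were 19.98% and 7.05%. *Lin28a*, *Lin28b*, and *Trim71* are known let-7 targets, as given above, so their matches are a description and no separate support. *Lin28a* had 2 matches in 2775 bases, *Lin28b* had 4 in 4445, *Trim71* had 4 in 5512, and *Ago2* had 3 in 11064. *Tarbp2* had 1 match of the shorter form, and *Drosha*, *Dgcr8*, *Dicer1*, *Xpo5*, and *Ago1* had none of these letters. All 8 longer matches are printed as windows of 30 bases with the match in capitals, read on the minus strand of GRCm38.
Lin28a, chr4:134005178-134005207: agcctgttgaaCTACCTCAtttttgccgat
Lin28a, chr4:134004540-134004569: tcgccacaaacCTACCTCActgtgttgaaa
Lin28b, chr10:45381011-45381040: gggcgggaagtCTACCTCAtgcaagcacag
Trim71, chr9:114512461-114512490: ttgcctaagtcCTACCTCAgcttaaatttt
Trim71, chr9:114512365-114512394: ataatttctatCTACCTCAactctttgcat
Trim71, chr9:114509036-114509065: gtatggattttCTACCTCAattttggcaaa
Trim71, chr9:114509010-114509039: caaaaagttgtCTACCTCAcgtcggcaccg
Ago2, chr15:73097971-73098000: acaatgtggatCTACCTCAgttaaacagtt

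Of the 10 genes, 9 reached 1 FPKM in all 3 libraries, against 20.1% of all named genes and 45.7% of protein-coding genes. The median of these 9 genes' mean levels was 18.2 FPKM, and that of all 16944 genes with at least 10 counts was 3.41 FPKM. Their levels ran from 8.47 FPKM for *Dicer1* to 157 FPKM for *Lin28a*, and *Dgcr8* was listed at 0.

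*Lin28a* encodes the LIN28 paralogue that acts mainly in the cytoplasm, where it recruits enzymes that add uridines to the let-7 precursor. The gene (ENSMUSG00000050966, GRCm38, chr4:134003330-134018841) had 10868, 12253, and 11401 counts in replicates 1, 2, and 3, or 150.4, 163.8, and 158.2 FPKM. The mean was 157 ± 6.73 FPKM (SD, n = 3), above 96.8% of the genes that reached 1 FPKM. The counts did not pass the test of variation between libraries on TMM-scaled library sizes (adjusted p = 0.124, chi-square test of homogeneity). They did with total counts as library sizes, the scale of these FPKM values (adjusted p = 3.91e-09), and, narrowly, with the trend on gene length removed (adjusted p = 0.0496).

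*Lin28b* encodes the paralogue that is found in the nucleus of many cells and binds primary let-7 transcripts. The gene (ENSMUSG00000063804, chr10:45376620-45486395) had 1620, 1963, and 1840 counts, or 9.88, 11.6, and 11.3 FPKM. Its mean of 10.9 ± 0.897 FPKM (SD, n = 3) lay above 58.8% of the genes that reached 1 FPKM, and replicate 1 was the lowest. *Lin28a* was therefore the higher paralogue in each library, with a ratio of 15.2, 14.2, and 14.1, and a mean ratio of 14.5 ± 0.643 (SD, n = 3). The ratio depends on the length assumed for *Lin28b*, which was 9065 bases in the table. With the length of the longest coding transcript the *Lin28b* level was 18.3 FPKM and the ratio 9.84.

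*Trim71* encodes a TRIM-NHL protein, the relative of nematode LIN-41, that binds and represses mRNAs in early embryonic cells. The gene (ENSMUSG00000079259, chr9:114507133-114564369) had 2328, 2554, and 2149 counts, or 13.8, 14.6, and 12.8 FPKM, with a mean of 13.7 ± 0.927 FPKM (SD, n = 3). Replicate 3 was the lowest here, unlike in *Lin28a* and *Lin28b*. The 3 genes of the let-7 switch were thus all above 1 FPKM in every library, with *Lin28a* above both others.

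Of the Microprocessor, *Drosha*, the RNase III that makes the first cut, was well expressed. The gene (ENSMUSG00000022191, chr15:12824815-12935291) had 2067, 2753, and 2588 counts, or 19.3, 24.8, and 24.2 FPKM, with a mean of 22.7 ± 3.03 FPKM (SD, n = 3). Replicate 1 was below both other libraries.

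*Dgcr8*, which encodes the RNA-binding subunit that holds the primary transcript for DROSHA, had 0 counts in all 3 libraries. The gene (ENSMUSG00000022718) lies at chr16:18253948-18289246. A count of 0 allows up to 3 counts, or 0.0216, 0.0208, and 0.0216 FPKM in replicates 1, 2, and 3, and such limits cover counting error only. Its neighbours, which were looked at after this value was seen, were also at or near 0. In a run of 11 named protein-coding genes (chr16:17980428-18348103, 367.7 kilobases), 9 had 0 counts and *Ranbp1* and *Tango2* had 1 count each in total, while the flanking genes *Slc25a1* and *Arvcf* had 10297 and 368. *Ranbp1* encodes a cofactor of the RAN transport cycle that dividing cells use.

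Other rows of the table that lie over this stretch held reads. Of 8 rows without a gene name on a patch scaffold of the genome, 7 were above 0, with 819, 684, and 848 counts in sum. By coordinates these rows lie over the same stretch, except that the last (40, 80, and 79 counts) lies over the flanking gene *Arvcf*. The row annotated with an RNA recognition motif and a dsRNA-binding motif, the domain that DGCR8 is known for, had 19, 113, and 73 counts, or 0.111, 0.639, and 0.428 FPKM over its length of 9446 bases. It spans the positions of both *Dgcr8* and *Trmt2a*, whose product has an RNA recognition motif, so its reads cannot be given to either gene. A separate patch row over the position of *Trmt2a*, annotated as a tRNA methyltransferase, was the row at 0. The row with the RanBP1 domain had between 341 and 474 counts. Hence *Dgcr8* was listed at 0 in a stretch where other rows held reads, its level is not known from this table, and no ratio of *Drosha* to *Dgcr8* was computed. Why the named rows hold no reads was not tested.

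**Figure D1:**
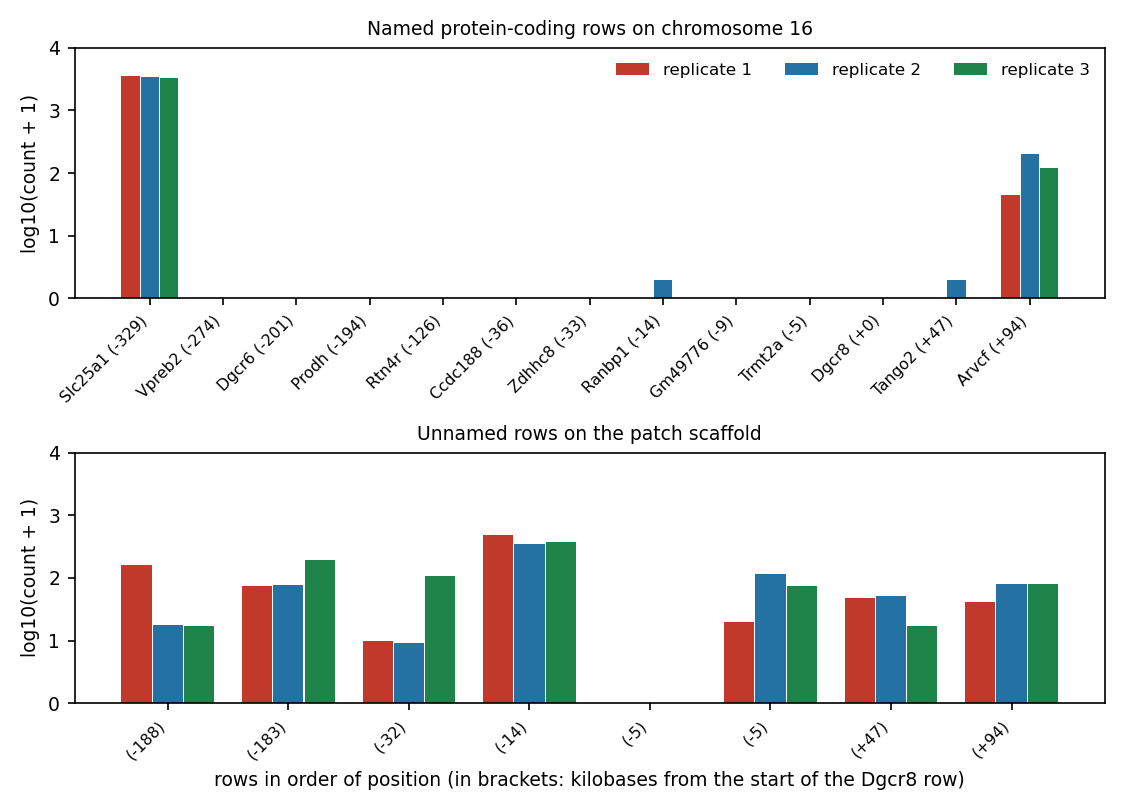
Counts per library, drawn as bars of log10(count + 1), for the named protein-coding rows around *Dgcr8* (upper panel) and the unnamed rows on the patch scaffold (lower panel), each in order of position, with the distance from the start of the *Dgcr8* row in kilobases in brackets. The named rows between *Slc25a1* and *Arvcf* hold at most 1 count, and 7 of the 8 unnamed rows hold reads.

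*Xpo5*, which encodes the exporter of hairpin precursors, was second to *Lin28a*. The gene (ENSMUSG00000067150, chr17:46202782-46243598) had 3383, 4611, and 4421 counts, or 27.3, 35.9, and 35.7 FPKM, with a mean of 33.0 ± 4.94 FPKM (SD, n = 3). Replicate 1 again lay below the other libraries.

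*Dicer1*, the RNase III that makes the second cut, had the lowest level of the 9 genes with reads on the table's lengths. The gene (ENSMUSG00000041415, chr12:104687742-104751952) had 1905, 3067, and 2823 counts, or 6.29, 9.78, and 9.34 FPKM. Its mean was 8.47 ± 1.90 FPKM (SD, n = 3), with replicate 1 apart from the others. Within libraries the level of *Drosha* was 2.73 ± 0.291 times that of *Dicer1*, and the level of *Xpo5* was 3.94 ± 0.348 times (SD, n = 3). The table's length of 16750 bases is longer than the longest coding transcript, and over the latter *Dicer1* was at 14.4 FPKM, above *Trim71* at 13.7 FPKM, which was then the lowest. On that scale *Drosha* was at 29.5 FPKM and *Xpo5* at 44.5 FPKM, so both ratios to *Dicer1* were smaller.

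*Tarbp2* encodes a dsRNA-binding partner of DICER1. The gene (ENSMUSG00000023051, chr15:102518192-102523676) had 1171, 1130, and 1067 counts, or 14.23, 13.27, and 13.004 FPKM, with a mean of 13.5 ± 0.646 FPKM (SD, n = 3). It was the only one of the 9 genes with its highest level in replicate 1. This level is less certain than the others. Of the 50-base words of its longest coding transcript, 50.9% occurred in no other gene, and the rest occurred in the processed copies *Gm18584* (45, 33, and 34 counts) and *Gm18561* (1, 0, and 0 counts). Over the length of that transcript *Tarbp2* was at 40.3 FPKM. The share of such words was at least 96.5% in the other 8 genes with reads. *Prkra*, whose product is the other partner of DICER1, was at 24.6 ± 2.06 FPKM (SD, n = 3), 1.82 ± 0.0759 times the level of *Tarbp2* on the table's lengths. Over the longest coding transcripts the direction turned, at 0.765 ± 0.0319 times (SD, n = 3).

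Of the Argonaute genes, *Ago2* encodes the family member that can cut its target, and *Ago1* a member that represses without cutting in most settings. *Ago1* (ENSMUSG00000041530, chr4:126435012-126468583) had 2055, 3961, and 3707 counts, or 14.0, 26.1, and 25.3 FPKM, with a mean of 21.8 ± 6.76 FPKM (SD, n = 3). *Ago2* (ENSMUSG00000036698, chr15:73095844-73184935) had 2208, 6269, and 5552 counts, or 8.70, 23.9, and 21.9 FPKM, with a mean of 18.2 ± 8.25 FPKM (SD, n = 3). In both genes replicate 1 lay far below replicates 2 and 3, which were close to each other.

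The paralogues *Ago3* and *Ago4* were far lower, at 0.594 ± 0.145 and 0.305 ± 0.0312 FPKM (SD, n = 3), and *Ago4* had at most 41 counts. Of the summed FPKM of the 4 genes, *Ago2* took 37.1%, 46.9%, and 45.5% in replicates 1, 2, and 3, with a mean of 43.2% ± 5.30. *Ago1* took 59.7%, 51.2%, and 52.5%, with a mean of 54.5% ± 4.56 (SD, n = 3). *Ago1* was above *Ago2* in all 3 libraries, by a ratio of 1.61 in replicate 1 and of 1.09 and 1.15 in replicates 2 and 3. *Ago3* and *Ago4* together took 2.38% ± 0.734. *Ago2* overlaps the antisense gene *Chrac1* (655, 559, and 651 counts), and it is not given in the sources used here whether the counting used strand.

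**Figure D2:**
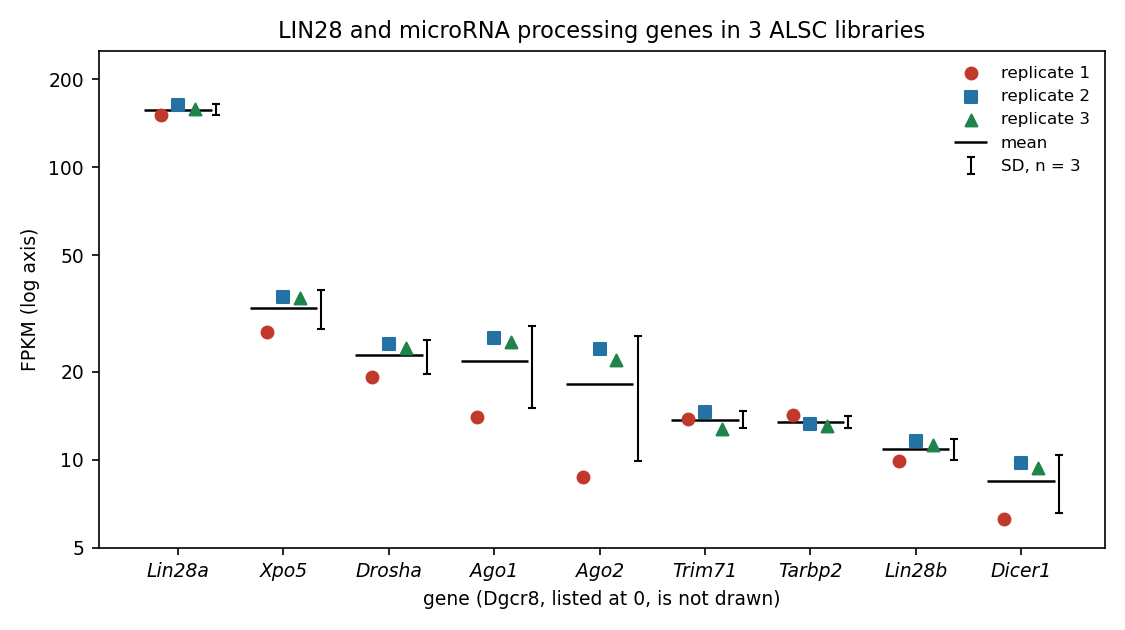
FPKM on a log axis for the 9 genes with reads, in order of their mean, with a point for each library, a line at the mean and a bar for the SD over 3 libraries. *Lin28a* lies above all others in every library, and replicate 1 lies lowest for *Ago1*, *Ago2*, *Dicer1*, *Drosha*, *Xpo5*, *Lin28a*, and *Lin28b*.

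In order of mean level the genes were *Lin28a*, *Xpo5*, *Drosha*, *Ago1*, *Ago2*, *Trim71*, *Tarbp2*, *Lin28b*, and *Dicer1*. For 4 of the 8 neighbouring pairs, the lowest library of the higher gene lay above the highest library of the lower gene. *Lin28a* lay above *Xpo5* by a ratio of means of 4.78, *Xpo5* above *Drosha* by 1.45, *Tarbp2* above *Lin28b* by 1.24, and *Lin28b* above *Dicer1* by 1.29. The last pair was barely apart, at 9.88 FPKM for the lowest *Lin28b* library and 9.78 FPKM for the highest *Dicer1* library. From *Drosha* through *Ago1*, *Ago2*, and *Trim71* to *Tarbp2* the ranges of neighbours overlapped. Within libraries, *Ago1* was above *Ago2* in 3 of 3, *Ago2* above *Trim71* in 2, and *Drosha* above *Ago1* and *Trim71* above *Tarbp2* in 1 each. With 3 libraries a sign test of such an order cannot go below an exact two-sided p of 0.25. Other settings changed the order itself, and pairs were then counted in the new order. Over the length of the longest coding transcript *Tarbp2* (40.3 FPKM) lay above *Drosha* (29.5 FPKM), *Trim71* was lowest (13.7 FPKM), and 2 neighbouring pairs were apart. Without replicate 1, *Ago1* (25.7 FPKM) lay above *Drosha* (24.5 FPKM), and 7 pairs were apart.

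Each gene's counts were set against those its TMM-scaled library sizes predict, in the chi-square test named above, which covers counting error only. Over the 16944 genes with at least 10 counts, 47.2% varied at an adjusted p of 0.05. Of the 9 genes with reads 8 varied on this scale, all but *Lin28a*, which varied with total counts and with the length trend removed, as given above. In 6 of these 8 (*Ago1*, *Ago2*, *Dicer1*, *Drosha*, *Lin28b*, and *Xpo5*) replicate 1 was the lowest. Genes that varied with replicate 1 lowest made up 22.1% of all genes tested and 46.8% of those that varied. The test finds smaller differences at higher counts. The median level of all genes tested was below that of the 9 genes with reads, so the shares given here are not matched for count.

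On the TMM scale, *Ago2* in replicate 1 stood at 39.9% of the mean of replicates 2 and 3, *Ago1* at 57.2%, and *Dicer1* at 69.0%. *Xpo5* stood at 79.9%, *Drosha* at 82.5%, *Lin28b* at 90.9%, and *Lin28a* at 98.0%. *Tarbp2* and *Trim71* were instead higher in replicate 1, at 113.7% and 105.7%. The adjusted p for *Ago2* was too small for the number format, and it was 5.75e-112 for *Ago1*, 3.02e-43 for *Dicer1*, 1.14e-26 for *Xpo5*, and 7.59e-12 for *Drosha*. It was 9.72e-05 for *Trim71*, 0.0052 for *Tarbp2*, and 0.0126 for *Lin28b*. With total counts as library sizes *Tarbp2* did not pass (adjusted p = 0.137).

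Without replicate 1, only *Trim71* (adjusted p = 0.0015) and *Ago2* (adjusted p = 0.00507) of the 9 genes still varied, where 8.11% of all genes tested did. Without replicate 2, 8 genes varied, beside 42.9% of all, and without replicate 3, 7 varied, beside 46.7% of all. *Trim71* was the gene lost without replicate 3 (adjusted p = 0.955). For the other 6 genes that varied, the call rests on replicate 1.

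Replicate 1 differed from the others along gene length. Over the genes averaging 100 counts or more, the median log2 ratio of replicate 1 to the mean of replicates 2 and 3 fell from 0.39 in the group of shortest genes (median 685 bases) to -0.53 in the group of longest genes (median 15642 bases). *Dicer1* lay on this trend, with a log2 ratio of -0.54 where the trend was at -0.53, and once each library's trend was put into the expected counts it no longer varied (adjusted p = 0.898). *Ago2* and *Ago1* lay below the trend, with log2 ratios of -1.33 and -0.81, which were -0.80 and -0.55 after the trend was taken out. *Trim71* lay above it, with a log2 ratio of 0.36 after the trend was taken out. With the length trend in the expected counts 8 of the 9 genes varied, and 38.6% of all genes did. With trends on length and GC content, an alternative added after the data were seen, 6 of 9 varied (*Trim71*, *Drosha*, *Tarbp2*, *Xpo5*, *Ago1*, and *Ago2*), and 37.9% of all genes did. Other differences between the libraries that move with length, and RNA quality, were not tested.

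**Figure D3:**
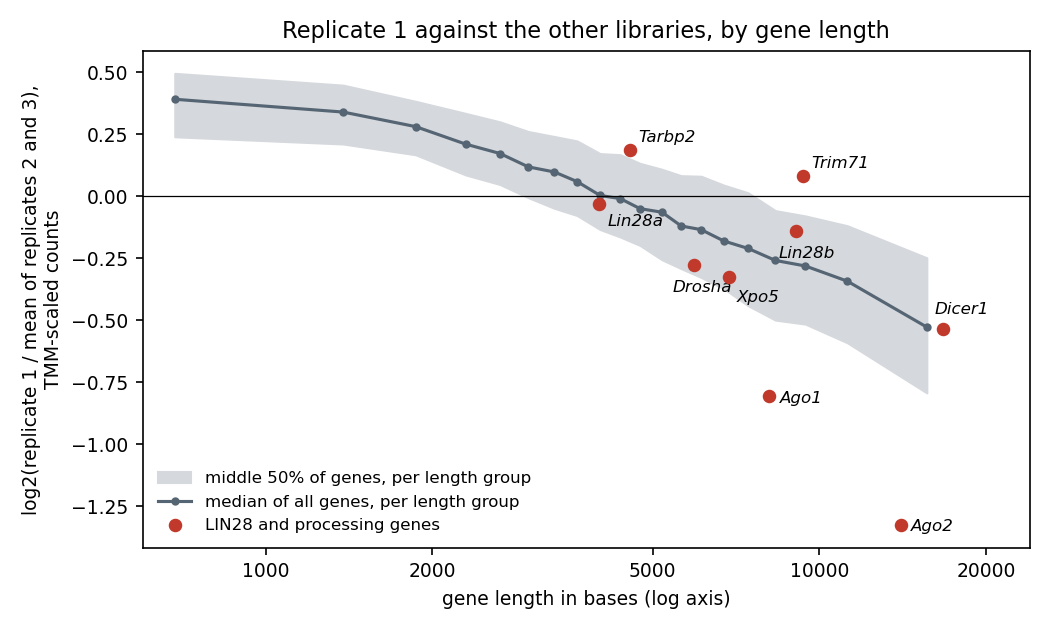
Log2 ratio of TMM-scaled counts in replicate 1 to the mean of replicates 2 and 3, against gene length in bases on a log axis, with the median and the middle 50% of all genes in 20 length groups and the 9 genes with reads as points. *Dicer1* lies on the median line, *Ago1* and *Ago2* lie below the middle 50%, and *Trim71* and *Tarbp2* lie above it.

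By the root mean square difference of log2(FPKM + 1) over the 3 libraries, the protein-coding genes closest to *Lin28a* were *Nono* (0.0444), *Ddx5* (0.0456), and *Gnai2* (0.0492). Only 4 protein-coding genes stayed within 0.1 of *Lin28a* on this scale in all libraries. The closest to *Lin28b* were *Chd1l* (0.0084), *Mapk7* (0.0167), and *Chtf18* (0.0207), among 63 within 0.1. For *Trim71* they were *Slc39a8* (0.0226), *Ebag9* (0.0295), and *Tmem189* (0.0358), among 27 within 0.1. With 1 condition and 3 libraries this likeness is mainly of level.

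The rows of the microRNA genes themselves were almost empty. All 12 let-7 rows and all 9 rows of the mir-290 to mir-295 cluster had 0 counts in all libraries, where 0 allows up to 3 counts per row. The 5 rows of the mir-302 cluster, the neighbouring *Mir367* included, which lie in introns of a longer transcript, had 7, 8, and 2 counts in sum, of which *Mir302b* had 0, 5, and 0. All 2207 rows of microRNA genes together had 270, 327, and 292 counts, and 175 were above 0. *Mir17hg*, the long host transcript of the mir-17 to mir-92 cluster, had 380, 377, and 311 counts. The let-7, mir-290 to mir-295, and mir-302 rows are shorter than a usual library fragment. None of the rows given here says anything of mature microRNA levels.

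The wider pathway was described through 96 further genes in 10 lists. Of the 10 genes and these 96 together, 99 reached 1 FPKM in all libraries. Of all named genes 20.1% reached that level, and of protein-coding genes 45.7%. The numbers of genes that reached 1 FPKM in each list below are to be read against these detection shares. Counts varied between libraries for 72 of the 95 further genes tested, with replicate 1 lowest in 47, and for 16 without replicate 1. Over all genes tested the shares were 47.2%, 22.1%, and 8.11%, and 38.6% varied with the length trend removed. The numbers of varying genes in each list below are to be read against these. All genes tested had a median level of 3.41 FPKM and a median length of 3789 bases. The 96 further genes had medians of 15.5 FPKM and 5978.5 bases. As the test finds smaller differences at higher counts, these shares are not matched for count or length.

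Among 5 genes of let-7 tailing and decay, 4 reached 1 FPKM, with a median of 2.95 FPKM. *Tut4* and *Tut7*, the uridylyl transferases that LIN28A recruits, were at 7.56 ± 1.72 and 2.36 ± 0.853 FPKM (SD, n = 3), a ratio of 3.35 ± 0.615 within libraries. These values rest on the table's lengths of 8684 and 14732 bases. The longest coding transcripts have 6054 and 5869 bases, and the ratio over them, which is smaller, was not computed. *Dis3l2*, the nuclease that degrades the tailed precursor, was at 2.95 ± 0.187 FPKM over 8901 bases, where its longest coding transcript has 3154. *Tent2*, a poly(A) polymerase that acts on microRNAs, was highest at 8.31 ± 0.320 FPKM. *Trim25*, an E3 ligase reported as a cofactor of LIN28A, was low, with 3, 3, and 17 counts, a spread past the threshold also without replicate 1 (adjusted p = 0.0205).

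All 13 Microprocessor cofactors reached 1 FPKM, with a median of 58.5 FPKM, above the 22.7 FPKM of *Drosha*. They ran from 8.93 FPKM for *Safb2*, an RNA- and chromatin-binding scaffold protein, to 560 FPKM for the RNA-binding protein *Hnrnpa1*. The helicase *Ddx5* was at 160.4 ± 3.74 FPKM and *Erh*, which binds DGCR8, at 156 ± 23.6 FPKM (SD, n = 3). All 13 varied between libraries, with replicate 1 lowest in 5, and 10 varied with the length trend removed. Without replicate 1, *Ddx5*, *Khsrp*, *Hnrnpa1*, *Srrt*, and *Erh* were among those that still varied.

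Of 4 genes of export and dicing partners all reached 1 FPKM. *Ran*, the GTPase that drives nuclear transport, was highest at 534 ± 78.6 FPKM, and *Adar*, which edits dsRNA, was lowest at 6.91 ± 1.62 FPKM (SD, n = 3). Of 8 genes of the Argonaute family and its loading chaperones 6 reached 1 FPKM. The chaperone *Hsp90ab1* was highest at 1983 ± 43.2 FPKM (SD, n = 3) and *Ago4* lowest. *Hsp90aa1*, *Hsp90ab1*, *Fkbp4*, and *Ptges3* varied without replicate 1.

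All 27 genes of the silencing complex, which joins Argonaute to deadenylation and decapping, reached 1 FPKM, with a median of 12.8 FPKM. They ran from 1.39 FPKM for the decapping cofactor *Dcp1b* to 223 FPKM for the poly(A)-binding protein *Pabpc1*. Counts varied for 21, with replicate 1 lowest in 18, and the list's median log2 ratio of replicate 1 to the others was -0.25. With the length trend removed this median was -0.07, and 16 genes varied. *Tnrc6a*, *Tnrc6b*, and *Tnrc6c* encode the GW182 proteins that Argonaute binds. They had 6.67 ± 1.99, 2.43 ± 0.944, and 8.23 ± 2.32 FPKM (SD, n = 3) and stood in replicate 1 at 58.6%, 47.8%, and 62.5% of the mean of replicates 2 and 3. As log2 ratios these were -0.77, -1.06, and -0.68, and with the length trend removed -0.43, -0.54, and -0.15. The *Tnrc6* genes are named here after their values were seen, except *Tnrc6c*, which alone in this list varied without replicate 1 (adjusted p = 0.0013).

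All 20 genes of a list of let-7 targets reached 1 FPKM, with a median of 12.8 FPKM. The chromatin protein *Hmga1* was highest at 525 ± 4.59 FPKM and the growth factor receptor *Igf1r* lowest at 2.61 ± 0.674 FPKM (SD, n = 3). The shorter let-7 match was present in 15 of their 20 UTRs and the longer in 10, with a median UTR of 2418 bases. Among all coding genes with a UTR of at least 2000 bases the shares were 19.98% and 7.05%. As the list was chosen as let-7 targets, these matches are a description and no separate support. Counts varied for 15, with replicate 1 lowest in 13, and for 11 with the length trend removed, where 47.2%, 22.1%, and 38.6% of all genes did. *Igf2bp3*, *Igf1r*, and *Igdcc3* still varied without replicate 1.

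The 7 genes of microRNA turnover all reached 1 FPKM, from *Zswim8*, part of the ligase that acts on Argonaute in target-directed decay, at 5.68 FPKM to the nuclease *Xrn2* at 37.7 FPKM. The 6 relatives of LIN28 with a cold shock domain ran from *Csdc2* at 1.64 FPKM to *Ybx1* at 685 FPKM, and *Ybx1* varied without replicate 1. Of the relatives of *Trim71*, *Trim2* was lowest at 1.97 FPKM and *Trim32* highest at 12.9 FPKM, so *Trim71* at 13.7 FPKM was close to *Trim32*, whose range of 10.8 to 14.5 FPKM overlapped it. The 3 genes of the PIWI clade, which serves the germ line, were below 1 FPKM, from 0.00685 FPKM for *Piwil4* to 0.142 FPKM for *Piwil2*.

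**Figure D4:**
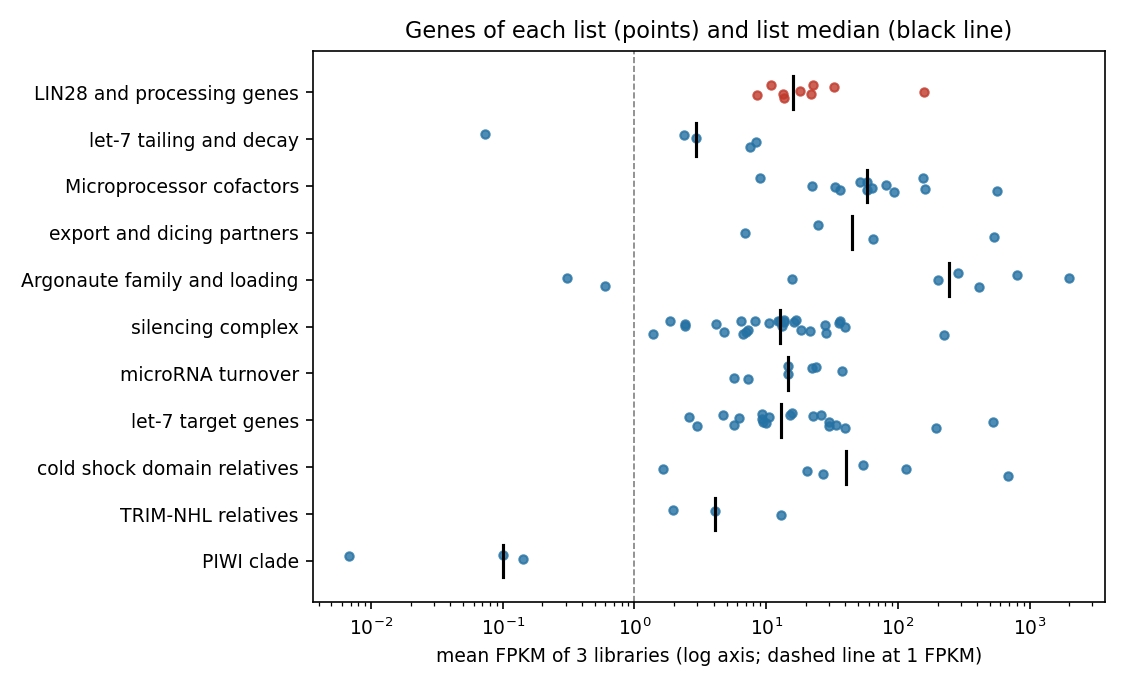
Mean FPKM over 3 libraries on a log axis for each gene (points) of the 10 genes described here and of the 10 pathway lists, with each list's median as a black line. *Dgcr8*, listed at 0, counts in the median of the first row and is not drawn; the 3 PIWI genes lie below 1 FPKM and the 13 Microprocessor cofactors above it.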

How the data were processed

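For polyA RNA of 3 ALSC libraries, the authors deposited raw counts, not normalized, with the length of each gene. Reads were paired-end and mapped to GRCm38, with HISAT2 2.0.5 per the submitters' processing notes. The counting program and its handling of strand and of reads with several positions are not given in the sources used here, and they bear on genes with copies or antisense partners. Of 55738 rows, 317 without a gene name (0.165% to 0.182% of the counts) were left out of totals and tests, and 3 columns of counts that match no sample of the series were not used.

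FPKM was computed from the counts, the table's gene length, and totals on named genes. A read on a gene of 1 kilobase was worth 0.0534 to 0.0554 FPKM. Variation was tested by chi-square against edgeR TMM library sizes (factors 0.968, 1.02, and 1.01) for genes with at least 10 counts, with Benjamini-Hochberg adjustment over all genes tested. Length and GC trends were medians in 20 groups of genes averaging 100 counts or more. A count of 0 was read as up to 3 counts. Alternatives covered library size, DESeq2 size factors, transcript length, TPM, count filters, thresholds, and each replicate left out.

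Named were the 10 genes; the highest and lowest gene of each list and those that varied without replicate 1; *Ago3*, *Ago4*, *Tut4*, *Tut7*, and *Dis3l2*; the 3 genes most like *Lin28a*, *Lin28b*, and *Trim71*; and the let-7, mir-290 to mir-295, and mir-302 rows. *Prkra*, the neighbours of *Dgcr8*, and *Mir17hg* were added. A gene that this rule names is not reported here. The genes and lists were chosen with earlier results of these data known. Python 3.11.15 (SciPy 1.17.1, NumPy 2.4.6, matplotlib 3.10.9, pandas 2.3.3) and R 4.3.3 (DESeq2 1.42.0, edgeR 4.0.16) were used.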

Additional observations from a re-analysis of the deposited data

Results flagged for a closer look

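Counts outside the named genes were found for the stretch that holds *Dgcr8*. The unnamed row on the patch scaffold that is annotated with an RNA recognition motif and a dsRNA-binding motif held 19, 113, and 73 counts in the libraries of replicates 1, 2, and 3, above the 3 counts that a 0 allows, while the named row of *Dgcr8* held 0 in each. Its mean was 0.393 ± 0.266 FPKM (SD, n = 3). There were no control samples to compare it with.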

How the results depend on the processing

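No paired analysis was possible because the series has 1 group. The median level of the 9 genes with reads was 19.9 ± 5.23 FPKM when taken within libraries (17.96 to 22.9 with a replicate left out) and 55.7 in TPM, a unit with another sum by construction. Over the longest coding transcript the *Lin28a* to *Lin28b* ratio was 9.84, and 2 neighbouring pairs of the order on that length were apart. The *Prkra* to *Tarbp2* ratio, a setting added after the data were seen, turned from 1.82 to 0.765. With a replicate left out the *Lin28a* to *Lin28b* ratio ran from 14.1 to 14.7 and the *Ago2* share from 41.3% to 46.2%. The pairs apart, each counted in the order of its own setting, ran from 4 to 7 (7 without replicate 1). The number of genes that varied was 2 to 8 of 9 with a replicate left out (2 without replicate 1). It was 6 to 8 under the other settings, with *Lin28b* lost at a threshold of 0.01, *Tarbp2* lost with total counts as library sizes (adjusted p = 0.137), and *Lin28a* gained with total counts (adjusted p = 3.91e-09) and with the length trend (adjusted p = 0.0496). The number of genes detected was 99 of 106 with any replicate left out and at 0.5 FPKM, 100 in TPM, and 82 at 5 FPKM. Over single genes, levels moved by less than 1 SD in 48 recomputed values and by more in 15, of which 9 were TPM and 6 used transcript length. Many of the 48 had a replicate left out, which cannot move a mean of 3 libraries by 1 SD of those libraries. Those values are therefore no sign of stability. Calls of variation kept their side of the threshold in 76 cases, 12 were lost, and 2 gained. No value gave a ratio of *Drosha* to *Dgcr8*, so its alternatives were not run. Depth limits *Trim25*, *Ago4*, and the microRNA rows.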
